A study of Mus musculus with 4 samples.

Results

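The planar cell polarity core genes were examined in Lgr5+ and Lgr6+ progenitors of the neonatal mouse cochlea. The genes were chosen by name as *Vangl1*, *Vangl2*, *Celsr1*, *Celsr2*, *Celsr3*, *Prickle1*, *Prickle2*, *Scrib*, *Ptk7* and *Fat4*, and all 10 were found among the 23997 genes of the deposited table. Lgr5+ progenitors were EGFP+ cells sorted by flow cytometry from Lgr5-EGFP-Ires-CreERT2 mice, and Lgr6+ progenitors were EGFP+ cells from Lgr6-EGFP-Ires-CreERT2 mice. Both populations came from C57BL/6 cochleae at postnatal day 3, with no treatment in the labels, and in both the reporter sits in the gene that it marks, so a sorted cell is defined by EGFP and not by its own Lgr5 or Lgr6 protein. The study describes Lgr5 in inner pillar cells, inner phalangeal cells, Deiters' cells of the third row and the lateral greater epithelial ridge, and Lgr6 in a subset of the inner pillar cells. The labels list 2 libraries per population, 4 in all, and the methods state that the RNA of each population was divided into 3 fractions for its replicates, so the numbers do not match and the replicates share an extraction.

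Planar cell polarity is the alignment of cells within the plane of an epithelium. In the core pathway, Vangl and Prickle proteins gather at a given side of a cell and Frizzled and Dishevelled proteins at the opposite side, while Celsr cadherins of neighbouring cells bridge the contact between the sides. In the cochlea the pathway is known for the uniform orientation of the hair bundles of hair cells (HCs) and for the lengthening of the cochlear duct by convergent extension, and the supporting cells (SCs) between the HCs carry the same asymmetric complexes.

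Expression was measured as FPKM, the fragments of a gene scaled to its transcript length and to the mapped fragments of the library, which can be compared between genes because it is a level per length. Each population has 1 combined FPKM value per gene, in which the replicates are already merged, so replicate spread could not be calculated and no difference given here has a test. The 13436 genes that reached an FPKM of 1 in either population were kept. The log2 change subtracts the Lgr5+ value of log2(FPKM + 1) from the Lgr6+ value, with negative changes for genes at a higher level in Lgr5+ cells, and the added 1 makes the differences of low genes look smaller. Over all kept genes its median was 0.03. A gene was counted as past the threshold from 1.5-fold upwards on this scale.

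*Celsr1*, *Celsr2* and *Ptk7* had higher FPKM in Lgr5+ cells, *Vangl2* and *Celsr3* had higher FPKM in Lgr6+ cells, and the other 5 genes were under 1.5-fold. Thus 3 of 10 genes were past the threshold toward Lgr5+ cells, against 23.3% of all kept genes, and 2 of 10 were past it toward Lgr6+ cells, against 28.5%. In either direction this was 5 of 10, against 51.8% of all kept genes, so the number of core genes past the threshold was near the background. When the populations were scaled to the same summed FPKM, the core genes past it were 2 toward Lgr5+ cells and 3 toward Lgr6+ cells, and the kept genes past it were 2283 and 5084. After quantile normalization 7 of 10 core genes were past it, 5 toward Lgr5+ cells and 2 toward Lgr6+ cells, against 50.9% of kept genes in either direction. By direction these kept genes were 3420 toward Lgr5+ cells and 3422 toward Lgr6+ cells, of 13436. The median log2 change of the 10 genes was -0.17, and their changes ran from -1.18 for *Celsr1* to 1.34 for *Celsr3*. All 10 genes were kept, but *Celsr3* was kept only through its Lgr6+ value and *Fat4* only through its Lgr5+ value.

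**Figure D1:**
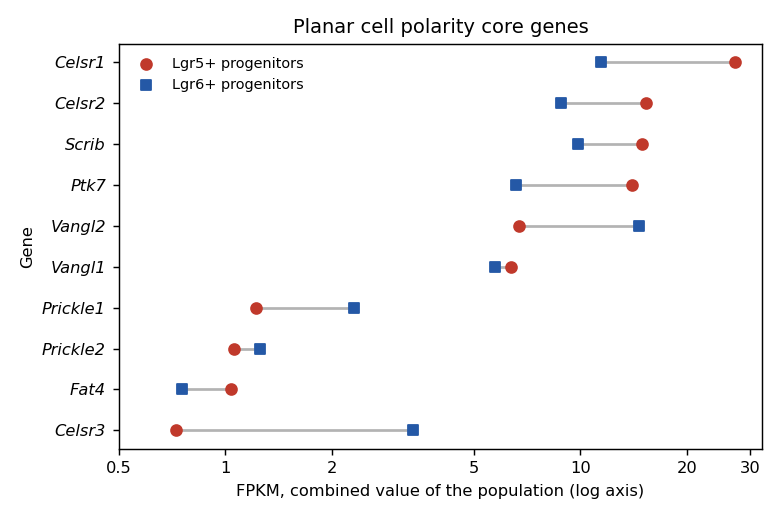
FPKM of the planar cell polarity core genes (log axis) in Lgr5+ cells (red circles) and Lgr6+ cells (blue squares), 1 combined value per population, in the order of the Lgr5+ values. *Celsr1* had the highest value in Lgr5+ cells at 27.2, and *Vangl2* had the highest value in Lgr6+ cells at 14.6.

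The order of the levels differed between the populations. In Lgr5+ cells the order from high to low was *Celsr1*, *Celsr2*, *Scrib*, *Ptk7*, *Vangl2*, *Vangl1*, *Prickle1*, *Prickle2*, *Fat4* and *Celsr3*. In Lgr6+ cells it was *Vangl2*, *Celsr1*, *Scrib*, *Celsr2*, *Ptk7*, *Vangl1*, *Celsr3*, *Prickle1*, *Prickle2* and *Fat4*. *Vangl2* was therefore in place 5 in Lgr5+ cells and in place 1 in Lgr6+ cells, while *Scrib* and *Vangl1* kept their places. Without values of single libraries, it is not known which neighbours in these orders differ beyond their spread. The summed FPKM of the 10 genes was 88.4 in Lgr5+ cells and 64.8 in Lgr6+ cells, or 73.2% of the Lgr5+ sum, whereas this share was 83.3% over all genes of the table. *Celsr1* alone held 27.2 and 11.4 of these sums, the largest difference of the 10 genes. The Lgr6+ value was also lower for *Ptk7*, *Celsr2*, *Scrib*, *Fat4* and *Vangl1*. It was higher for *Vangl2*, *Celsr3*, *Prickle1* and *Prickle2*, so the sum mixes both directions and does not describe the set. The median FPKM of the 10 genes was 6.53 and 6.17, below the medians of 9.40 and 9.95 over all kept genes.

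Celsr proteins are large atypical cadherins, the vertebrate counterparts of *Drosophila* Flamingo, that bind each other across cell contacts. *Celsr1*, whose mutation misorients hair bundles in mice, lies at chr15:85898758-86033777 and had an FPKM of 27.2 in Lgr5+ cells and 11.4 in Lgr6+ cells. This is a ratio of 2.37 toward Lgr5+ cells and a log2 change of -1.18, and 8.35% of all kept genes had a lower log2 change. The Lgr5+ value of *Celsr1* was above those of 75.6% of kept genes, and its Lgr6+ value was above those of 54.0%.

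*Celsr2*, at chr3:108390848-108415494, had an FPKM of 15.3 in Lgr5+ cells and 8.83 in Lgr6+ cells. The ratio was 1.73 toward Lgr5+ cells and the log2 change was -0.73. *Celsr2* stood in the same direction as *Celsr1* with a smaller difference, and it was the only core gene past the threshold that came under 1.5-fold when both populations were scaled to the same summed FPKM, at -0.50.

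*Celsr3*, best known for its role in axon guidance, lies at chr9:108826320-108852969. It had an FPKM of 0.724 in Lgr5+ cells, the lowest of the 10 genes there, and 3.38 in Lgr6+ cells. The ratio of FPKM was 4.66 toward Lgr6+ cells, the largest among the core genes, and the log2 change was 1.34. *Celsr3* thus stood in the direction opposite to *Celsr1* and *Celsr2*. Among neuronal marker genes, *Snap25* had an FPKM of 7.63 in Lgr5+ cells and 53.4 in Lgr6+ cells, *Stmn2* had 8.74 and 10.2, *Nefl* had 15.2 and 14.7, and *Tubb3* had 1.18 and 0.0959. The part of neuronal RNA in the *Celsr3* values was not tested.

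Within the Celsr family, shares do not depend on a scaling between the populations that multiplies all genes alike. *Celsr1* made up 62.9% of the summed FPKM of the 3 Celsr genes in Lgr5+ cells and 48.4% in Lgr6+ cells. The share of *Celsr2* was 35.4% and 37.3%, and the share of *Celsr3* was 1.68% and 14.3%. The summed FPKM of the family was 43.2 in Lgr5+ cells and 23.65 in Lgr6+ cells. *Celsr1* exceeded *Celsr3* by 37.5 times in Lgr5+ cells and by 3.39 times in Lgr6+ cells.

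**Figure D2:**
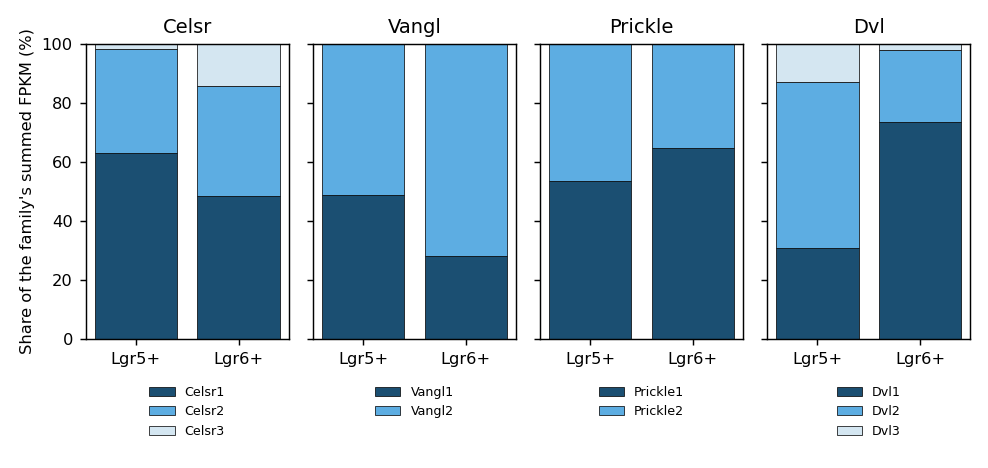
Share of each paralog in the summed FPKM of the Celsr, Vangl, Prickle and Dvl families (in percent) in Lgr5+ and Lgr6+ cells, with stacked bars that add to the whole family. The share of *Celsr3* was 1.68% in Lgr5+ and 14.3% in Lgr6+ cells, that of *Vangl2* was 51.3% and 71.8%, and that of *Dvl1* was 30.9% and 73.4%.

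Vangl proteins are membrane proteins that recruit Prickle. *Vangl2*, the gene mutated in Looptail mice, whose hair bundles are misoriented, lies at chr1:172004371-172027268. It had an FPKM of 6.70 in Lgr5+ cells and 14.6 in Lgr6+ cells, a ratio of 2.19 toward Lgr6+ cells and a log2 change of 1.02. Of all kept genes, 82.3% had a lower log2 change. Its paralog *Vangl1*, at chr3:102155900-102204693, had 6.36 and 5.75, a log2 change of -0.12 that turned to 0.11 when both populations were scaled to the same sum. The paralogs were thus near the same level in Lgr5+ cells, with a *Vangl2* to *Vangl1* ratio of 1.05, whereas this ratio was 2.54 in Lgr6+ cells. The share of *Vangl2* in the summed FPKM of the pair was 51.3% and 71.8%.

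Set against *Celsr1*, the level of *Vangl2* was far lower in Lgr5+ cells and somewhat higher in Lgr6+ cells. The ratio of *Celsr1* to *Vangl2* was 4.06 in Lgr5+ cells and 0.782 in Lgr6+ cells, a difference of 5.19 times. The ratio of *Scrib* to *Vangl2* was 2.23 and 0.672.

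Prickle proteins are cytoplasmic LIM-domain partners of Vangl, and both Prickle core genes were low in both populations. *Prickle1*, at chr15:93499114-93595891, had an FPKM of 1.22 in Lgr5+ cells and 2.30 in Lgr6+ cells. As a ratio this was 1.89 toward Lgr6+ cells, while the log2 change of 0.57 stayed just under the threshold. *Prickle2*, at chr6:92370892-92706184, had 1.05 and 1.25, and its log2 change of 0.13 turned to -0.29 after quantile normalization. No more than 13.5% of kept genes had a lower level than either gene in Lgr5+ cells, and no more than 16.9% in Lgr6+ cells.

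*Scrib* encodes a PDZ-domain scaffold that binds Vangl proteins and is mutated in Circletail mice. It lies at chr15:76047186-76069730 and had an FPKM of 14.9 in Lgr5+ cells and 9.84 in Lgr6+ cells. Its ratio of 1.515 toward Lgr5+ cells was just past 1.5-fold, while its log2 change of -0.55 on the scale with the added 1 was just under it. *Ptk7* encodes a receptor-like pseudokinase that is needed for hair bundle orientation. It lies at chr17:46564451-46629504 and had 14.0 in Lgr5+ cells and 6.59 in Lgr6+ cells, a ratio of 2.12 and a log2 change of -0.98. *Ptk7* was thus, after *Celsr1*, the core gene with the largest difference toward Lgr5+ cells.

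*Fat4* encodes a giant protocadherin that pairs with Dachsous in a polarity system beside the core pathway. It lies at chr3:38886940-39011983 and had an FPKM of 1.03 in Lgr5+ cells and 0.752 in Lgr6+ cells. The log2 change was -0.22, which became -0.63 and past 1.5-fold after quantile normalization, and this gene was the lowest of the 10 in Lgr6+ cells.

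When the ratio of FPKM was used without an added 1, *Prickle1* and *Scrib* also passed, so that 7 of 10 core genes were at least 1.5-fold apart, against 55.0% of the 12724 kept genes with a value above 0 in both populations. Of these 7 genes, 4 were higher in Lgr5+ cells, against 26.1% of those kept genes, and 3 were higher in Lgr6+ cells, against 28.9%. *Vangl2*, *Celsr1*, *Celsr3* and *Ptk7* were past 1.5-fold under every scaling, pseudocount and filter that kept them.

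**Figure D3:**
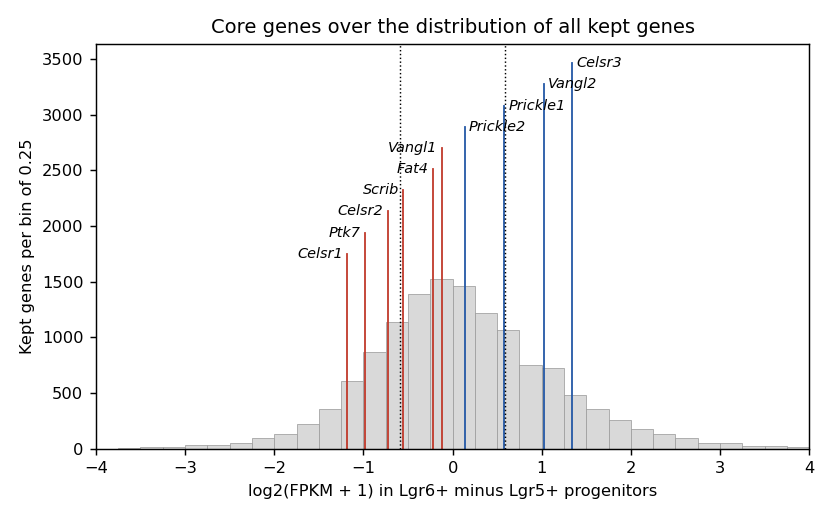
Number of kept genes (vertical axis) by log2 change between Lgr6+ and Lgr5+ cells (horizontal axis, bins of 0.25), with vertical lines at the log2 changes of the planar cell polarity core genes, whose heights carry no value, and dotted lines at 1.5-fold. The core genes lay between -1.18 and 1.34, inside the range of the kept genes on both sides.

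The low FPKM values of the table fall on steps. With the length of the longest annotated transcript less 200 bases, and if a step stands for 1 fragment, the values of *Celsr3* correspond to 64 fragments in Lgr5+ cells and 954 in Lgr6+ cells, and those of *Celsr1* to 2292 and 3094. The smallest such number among the core genes was 37, for *Prickle1* in Lgr5+ cells. The steps in Lgr6+ cells were 3.204 times finer than in Lgr5+ cells. It is not known that a step is 1 fragment, since replicates were merged, so these numbers are conditional and no counting interval was calculated.

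The deposited intervals were read as mouse genome build GRCm38, with 1 added to each start, and each of the 10 genes is annotated there as protein-coding. RefSeq places other genes in the intervals of *Vangl1* (the long noncoding RNA *Gm16160*), *Prickle2* (*Gm38862*, *Gm17797* and *Gm5880*), *Scrib* (*Mir6952*) and *Fat4* (the long noncoding RNA *C230034O21Rik*). The sources used here do not state that strand entered the counting, so fragments of such overlaps cannot be told apart. The intervals of *Vangl2*, *Celsr1*, *Celsr2*, *Celsr3* and *Ptk7*, the genes past the threshold, hold no other RefSeq gene.

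Promoter sequences of RefSeq on GRCm38.p6, cut to the 250 bases before the transcript start, were matched for 7 of the 10 core genes, with 11 start sites. *Celsr1*, *Vangl1* and *Scrib* had no matched window. Windows are shown for the genes past the threshold that had one, 2 higher in Lgr6+ cells and 2 higher in Lgr5+ cells. Capitals mark every E-box (CANNTG, which reads the same on both strands), the motif of basic helix-loop-helix factors such as Atoh1.
*Vangl2*, chr1:172027296-172027545, minus strand: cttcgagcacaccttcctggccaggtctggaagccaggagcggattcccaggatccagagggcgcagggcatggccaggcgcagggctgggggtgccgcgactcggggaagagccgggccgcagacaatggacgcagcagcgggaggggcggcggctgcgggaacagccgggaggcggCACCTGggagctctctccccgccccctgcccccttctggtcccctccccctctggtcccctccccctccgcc
*Celsr3*, chr9:108825795-108826044, plus strand: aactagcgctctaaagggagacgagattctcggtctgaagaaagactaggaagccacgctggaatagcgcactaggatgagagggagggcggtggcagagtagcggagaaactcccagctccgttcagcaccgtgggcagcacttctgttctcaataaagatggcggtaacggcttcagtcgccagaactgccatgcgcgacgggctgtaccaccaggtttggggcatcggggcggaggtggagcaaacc
*Celsr2*, chr3:108415580-108415829, minus strand: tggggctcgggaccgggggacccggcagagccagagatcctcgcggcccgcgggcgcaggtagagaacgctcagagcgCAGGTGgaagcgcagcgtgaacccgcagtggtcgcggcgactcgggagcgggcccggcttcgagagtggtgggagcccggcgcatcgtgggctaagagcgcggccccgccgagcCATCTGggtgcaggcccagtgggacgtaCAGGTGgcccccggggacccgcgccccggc
*Ptk7*, chr17:46629505-46629754, minus strand: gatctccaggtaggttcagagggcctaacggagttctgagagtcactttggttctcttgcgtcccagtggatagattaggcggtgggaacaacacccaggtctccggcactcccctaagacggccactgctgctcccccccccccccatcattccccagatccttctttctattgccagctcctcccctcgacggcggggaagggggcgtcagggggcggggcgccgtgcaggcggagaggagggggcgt
The *Celsr2* window lies inside the RefSeq span of this gene, which reaches 108416069, and so precedes a start within the gene. The *Celsr2* window held 3 E-boxes, the *Vangl2* window held 1 and those of *Celsr3* and *Ptk7* held 0. Each direction thus had a window with an E-box and a window without. With 2 windows per direction and none for *Celsr1*, nothing is concluded about direction. An E-box was found in 7 of the 11 windows of the core genes and in 66.2% of all 32851 windows of the same length. The TCF/LEF motif CTTTGA, searched on both strands and unable by its letters to overlap an E-box, was found in 1 of the 11 windows, at another start of *Prickle2*, and in 13.8% of all windows. The 4 printed windows held 14 to 32 CpG dinucleotides, against a median of 6 over all windows. Over all 11 windows of the core genes the numbers ran from 4 to 34, with a median of 16.

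Other genes of the pathway were counted in lists by role, and 47 of 48 listed genes were in the table, of which 41 were kept. Of these, 9 were past the threshold toward Lgr5+ cells and 10 toward Lgr6+ cells, against 23.3% and 28.5% of all kept genes. The split was 7 and 17 when the populations were scaled to the same sum, against 2283 and 5084 of the 13436 kept genes. At 2-fold it was 2 and 8, against 1575 and 2443 of the kept genes. When both populations had to reach an FPKM of 1, the split at 1.5-fold was 8 and 8. The genes kept by that filter were past it 2516 and 2392 times of 11177. The 19 genes past 1.5-fold kept the sign of their log2 change under the other pseudocounts, filters and scalings. The core partners, which hold the Frizzled receptors and the cytoplasmic Dishevelled proteins, had 3 of 7 kept genes toward Lgr5+ cells and 1 toward Lgr6+ cells. The receptors were under 1.5-fold, with an FPKM of 24.8 and 23.4 for *Fzd6*, whose sign turned with the same sum, and of 6.59 and 8.42 for *Fzd3* in Lgr5+ and Lgr6+ cells.

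The Dishevelled genes differed in opposite directions. *Dvl1* had an FPKM of 7.40 in Lgr5+ cells and 19.6 in Lgr6+ cells, a log2 change of 1.30. *Dvl2* had 13.5 and 6.57, a log2 change of -0.94, and *Dvl3* had 3.12 and 0.552, a log2 change of -1.41. *Dvl3* was kept only through its Lgr5+ value. *Dvl1* accordingly made up 30.9% of the summed FPKM of the 3 Dvl genes in Lgr5+ cells and 73.4% in Lgr6+ cells, although the sums of 24.0 and 26.8 were close. *Prickle3* had 10.4 and 4.72, a log2 change of -0.99, so it stood in the direction opposite to *Prickle1*. *Ankrd6* was under 1.5-fold, and *Prickle4* was listed at 0 in Lgr5+ cells and was not kept.

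Among Wnt ligands and receptors linked to polarity, 2 of 8 kept genes were past the threshold in each direction. Over all kept genes the shares were 23.3% toward Lgr5+ cells and 28.5% toward Lgr6+ cells. *Ryk*, a Wnt receptor, had an FPKM of 35.3 in Lgr5+ cells and 17.8 in Lgr6+ cells, and *Wnt7a* had 13.4 and 6.81. Toward Lgr6+ cells, *Wnt5b* had 0.102 and 1.86 and the receptor *Ror1* had 0.0485 and 1.67, both low in either population. Both were kept only through their Lgr6+ values, which at such low Lgr5+ values set their place past the threshold. *Wnt5a*, the ligand best known in cochlear polarity, had 18.5 and 13.8 and was under 1.5-fold.

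The Fat and Dachsous list had 2 of 3 kept genes past the threshold, both toward Lgr5+ cells, against 23.3% of all kept genes. *Dchs1*, the binding partner of Fat4, had an FPKM of 3.91 in Lgr5+ cells and 1.73 in Lgr6+ cells, and *Fjx1*, related to the kinase Four-jointed, had 27.2 and 12.3. *Fat1* had 6.53 and 10.03, a ratio of 1.535 toward Lgr6+ cells that was just past 1.5-fold. Its log2 change of 0.55 on the scale with the added 1 stayed under the threshold. Of the Scribble module, *Dlg1* had 13.8 in Lgr5+ cells and 32.0 in Lgr6+ cells, a log2 change of 1.16, which was opposite in sign to that of *Scrib*. *Llgl1* and *Llgl2* were under 1.5-fold, with log2 changes of -0.46 and -0.57.

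**Figure D4:**
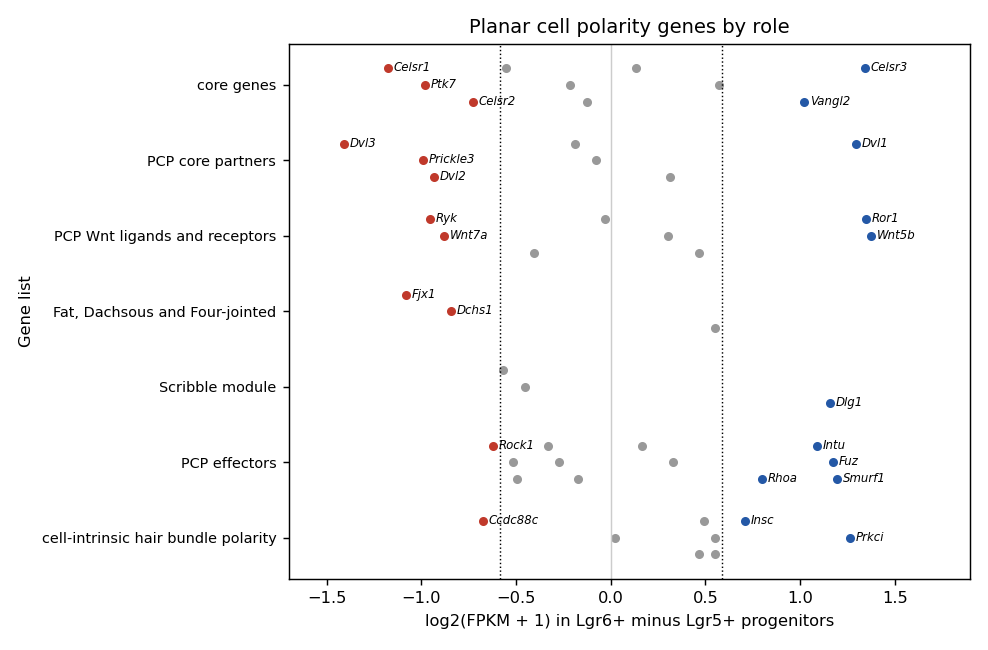
Log2 change between Lgr6+ and Lgr5+ cells (horizontal axis) for the kept planar cell polarity genes, in rows by role, 1 point per gene, with dotted lines at 1.5-fold and names for genes past them (red toward Lgr5+, blue toward Lgr6+). The lists held genes past the threshold on both sides except the Fat list, with 2 toward Lgr5+, and the Scribble module, with 1 toward Lgr6+. Over all kept genes 23.3% were past it toward Lgr5+ and 28.5% toward Lgr6+.

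Among the effectors, 4 of 12 kept genes were past the threshold toward Lgr6+ cells, against 28.5% of all kept genes. Toward Lgr5+ cells 1 of the 12 was past it, against 23.3%. The effectors *Intu* and *Fuz*, which also act at the primary cilium, had FPKM values of 6.03 and 10.7 in Lgr5+ cells and of 13.95 and 25.5 in Lgr6+ cells. *Smurf1*, a ubiquitin ligase that acts on Prickle, had 4.60 and 11.9, and the GTPase gene *Rhoa* had 27.7 and 49.0. The kinase gene *Rock1* had 29.2 in Lgr5+ cells and 18.6 in Lgr6+ cells, a log2 change of -0.62. *Grhl3* was listed at 0 in both populations.

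The last list holds genes that position the hair bundle within a single cell. Of its 8 kept genes, 2 were past the threshold toward Lgr6+ cells, against 28.5% of all kept genes. These were *Prkci* with 2.43 and 7.24 and *Insc* with 29.8 and 49.3. Toward Lgr5+ cells 1 of the 8 was past it, *Ccdc88c* with 6.47 and 3.68, against 23.3% of all kept genes. *Gpsm2* had 19.0 and 28.3 and *Gnai3* had 17.7 and 24.8, both under 1.5-fold. The median log2 change of this list was 0.52, against 0.03 over all kept genes and -0.17 for the core genes.

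Marker genes of the cells that the sort could hold differed between the populations as well. The study reports that nearly all sorted cells of both populations stained for Sox2 and none for Myo7a. By q-PCR it reports less of the HC marker *Brn3.1* than in EGFP- cells. It also reports more *Lgr5* in Lgr5+ cells and more *Lgr6* in Lgr6+ cells, each against EGFP- cells. The staining measures protein in single cells, whereas the values here are RNA of all sorted cells together. The summed FPKM of 7 SC markers was 860.5 in Lgr5+ cells and 318.6 in Lgr6+ cells, and *Hes5* alone had 505 and 91.7. Of these 7 markers, *Hes5*, *Sox2* and *Jag1* were past the threshold toward Lgr5+ cells, *Lfng* and *Lgr5* were past it toward Lgr6+ cells, and *Prox1* and *Fgfr3* were under it. The summed FPKM of 5 HC markers was 189 and 331.5, and 4 of the 5 were past the threshold toward Lgr6+ cells. Over all kept genes 23.3% were past it toward Lgr5+ cells and 28.5% toward Lgr6+ cells. For macrophages 5 of 5 markers and for endothelium 4 of 4 were past it toward Lgr6+ cells, with sums of 0.905 and 177.6 and of 4.50 and 49.4. In Lgr5+ cells 4 of the 5 macrophage markers and 1 of the 4 endothelial markers were listed at 0. A gene at 0 there was kept only with an FPKM of at least 1 in Lgr6+ cells. Its place past the threshold was therefore set by the filter and adds nothing to these counts. *C1qa*, *Pecam1* and the melanocyte marker *Pmel* were also kept only through their Lgr6+ values. The sums were 44.0 and 152.6 for 5 mesenchyme markers, 72.9 and 197.3 for 4 glial markers, 32.8 and 78.4 for 4 neuronal markers and 0.507 and 3.845 for 4 melanocyte markers. Of these, 3 of 5 mesenchyme, 2 of 4 glial and 1 of 4 neuronal markers were past the threshold toward Lgr6+ cells. Toward Lgr5+ cells 1 neuronal marker was past it, and the 1 melanocyte marker that was kept was past it toward Lgr6+ cells. Of the sorting genes, *Lgr5* had 9.65 in Lgr5+ cells and 25.0 in Lgr6+ cells, and *Lgr6* had 2.06 and 2.90. *Lgr5* was thus not higher in the population sorted by it than in the other. The q-PCR compared each population with its own EGFP- cells, so the values here do not test the sort. The part of the marked cell types in the values of the core genes was not tested. In bulk RNA, fewer cells of a type and less RNA per cell cannot be told apart.

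The kept genes whose pair of values lay closest to that of *Celsr3*, the core gene with the largest log2 change, were *Smg8*, *Cntnap2* and *Tigit*, at distances of 0.0343, 0.0391 and 0.0414 in log2(FPKM + 1). With only 2 values per gene this likeness is weak, since 305 kept genes lay within a distance of 0.5.

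**Figure D5:**
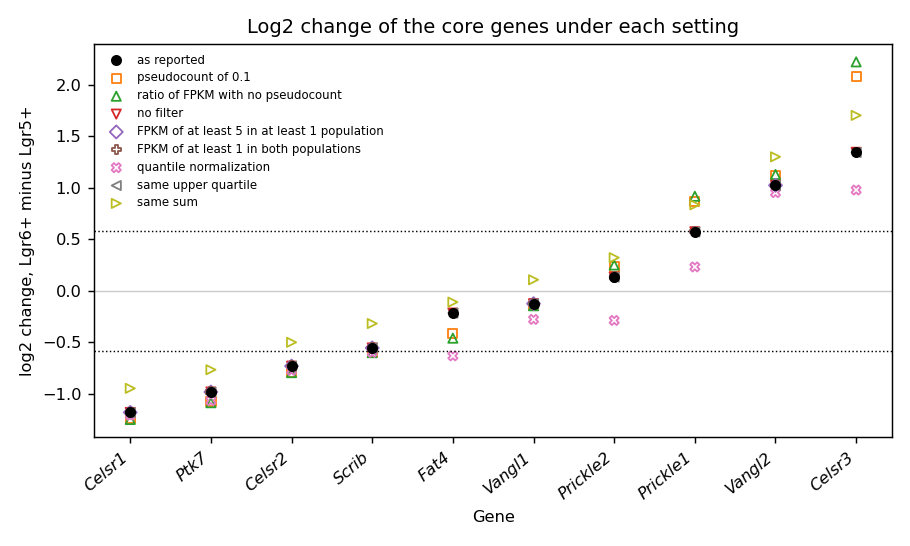
Log2 change of each planar cell polarity core gene between Lgr6+ and Lgr5+ cells (vertical axis) as reported (black) and under each other pseudocount, filter or scaling (open symbols), with dotted lines at 1.5-fold. *Celsr1* stayed between -1.25 and -0.95 and *Vangl2* between 0.95 and 1.30, while *Vangl1* and *Prickle2* lay on both sides of 0.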

How the data were processed

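RNA-Seq was performed by the authors on sorted Lgr5+ and Lgr6+ cells with a low-input cDNA kit and paired-end sequencing. Reads were trimmed with Trimmomatic, mapped with TopHat and annotated with RefGene. The FPKM values that the authors deposited were calculated with Cufflinks and hold 1 combined value per gene and population. Versions are not given in the sources used here. The methods name mm9, whereas the submitters' processing notes name mm10, and 98.8% of 22500 deposited intervals with a matched symbol overlapped that gene in RefSeq GRCm38.p6. The 3 columns of the authors' own comparison (log2 fold change, *p*-value and *q*-value) were not used.

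Samples were grouped by the cell type label. The log2 change was calculated with a pseudocount of 1 after keeping genes that reached an FPKM of 1 in either population, and 1.5-fold, the fold that the study names for a difference, was the threshold without its condition on the *p*-value. No test was possible with 1 value per population. The fold calculation was tested on simulated data. Low FPKM values, multiplied by transcript length, lay on steps of 0.1286 and 0.04014 in Lgr5+ and Lgr6+ cells. Read counts were not analysed here. The study gives the range of paired-end reads over its samples but not the depth of each library.

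Named were all core genes, genes of the role lists past the threshold or at the ends of a list, the sorting genes, marker genes and the 3 kept genes nearest to the core gene with the largest log2 change. Other genes named (*Fzd3*, *Fzd6*, *Wnt5a*, *Ankrd6*, *Prickle4*, *Grhl3*, *Llgl1*, *Gpsm2* and *Gnai3*) were chosen after their values were seen. The core genes and lists were chosen with earlier results of these data known. Alternatives were other pseudocounts, filters, scalings and a 2-fold threshold. Python 3.11.15, numpy 2.4.6, pandas 2.3.3 and matplotlib 3.10.9 were used.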

Additional observations from a re-analysis of the deposited data

How the results depend on the processing

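No paired analysis was possible because the deposited table holds 1 combined value per population, and for the same reason the leaving out of each replicate was not run. The median log2 change of the core genes, -0.17 as reported, was -0.28 with a pseudocount of 0.1, -0.30 as a ratio without pseudocount, -0.64 with a minimum FPKM of 5, which kept 6 core genes, and -0.34 when both populations had to reach an FPKM of 1, which kept 8. It was -0.44 after quantile normalization and -0.001 when the populations were scaled to the same sum. That scaling moved the median of all kept genes by 0.24 and the share of genes past the threshold that were higher in Lgr6+ cells from 55.0% to 69.0%. With the minimum FPKM of 5, 1 core gene was higher in Lgr6+ cells, against 4 as reported, since the low genes were left out. With a 2-fold threshold 3 core genes (*Celsr1*, *Vangl2* and *Celsr3*), 10 genes of the role lists and 4018 kept genes were past it, against 5, 19 and 6962. The log2 change of *Vangl1* turned from -0.12 to 0.11 with the same sum and that of *Prickle2* from 0.13 to -0.29 after quantile normalization. The sign of the other 8 core genes was the same under each alternative that kept them. The depth of each library was not known beyond the range that the study gives, and it limits the low genes most.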

Other observations

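Genes of both polarity systems lie close together on chromosome 3. In the deposited intervals, *Gnai3* (from 108107275 to 108146152), *Celsr2* (from 108390848 to 108415494) and *Gpsm2* (from 108653913 to 108722299) lie within 615 kb. *Gnai3* and *Gpsm2*, which set the position of the hair bundle within a cell, had higher FPKM in Lgr6+ cells, with 24.8 against 17.7 and 28.3 against 19.0, while *Celsr2* had 8.83 against 15.3. None of these differences has a replicate check, and the trio was chosen after its values were seen.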
